A study of Xenopus laevis with 4 samples.

Results

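tfcp2l1.L, tfcp2l1.S, six3.L and otx1.L are genes of developmental transcription factors whose RNAs were measured in whole oocytes and in isolated vegetal cortices of the frog Xenopus laevis. The vegetal cortex is the layer of cytoplasm and cytoskeleton under the membrane of the yolk-rich hemisphere of the oocyte. The genes were chosen by their signals in this same comparison, in which all of them were higher in the cortex, so their own differences are given as a description without a test. They are 4 of 7531 genes that had a probe set carrying their symbol alone, and each was represented by 1 such probe set among the 15491 of the array other than controls. The endings .L and .S mark the copies of a gene, called homeologs, on the L (long) and S (short) chromosome sets of this frog, whose genome is a merger of those of different ancestors.

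Both groups came from full-grown stage VI oocytes treated with collagenase. Whole oocytes were left intact, and vegetal cortices were dissected by hand from bisected oocytes after the yolky cytoplasm had been pressed away. Cortices were pooled in batches, intact oocytes of the same female served as controls, and each of the 2 replicates per group came from a different female. The second cortex sample is numbered 2 in its title only, as its description repeats the numbers of the first, and the pairing by female used here follows the titles. No strain, age or genotype of the females was given in the sources used here. Every probe set has 1 MAS5 signal per array, a linear intensity combined from its probes. Each array was scaled to the same mean, so a higher signal means a larger share of the RNA of that sample. More of an RNA at the cortex and less of the other RNAs there cannot be told apart.

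Tfcp2l1 belongs to the CP2 branch of the grainyhead family of DNA-binding proteins and is known from mouse as a factor of naive pluripotent stem cells and of kidney epithelium. Six3 is a homeodomain protein of the forebrain and eye that can repress its targets together with Groucho (TLE) corepressors. Otx1 is a paired-type homeodomain protein related to fly orthodenticle and acts in the developing forebrain and midbrain. An RNA stored in the oocyte is inherited by the embryo, and one held at the vegetal cortex passes to the cells that form from the vegetal pole.

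otx1.L gave signals of 7247 and 7881 in whole oocyte replicates 1 and 2. In vegetal cortex replicates 1 and 2 its signals were 57025 and 58140. Both cortex arrays lay far above both oocyte arrays, and within each group the arrays were close together. The means were 7564 ± 448 in whole oocytes and 57583 ± 789 in cortices (SD, n = 2). The ratio of signals was 7.87 in the first female and 7.38 in the second. No probe set other than controls gave a higher signal than otx1.L on the first cortex array, and on the second it ranked 2. Signals of different probe sets depend on their probes, so this rank places the reading at the top of the measured range and does not rank amounts of RNA.

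six3.L gave signals of 249.7 and 234.6 in whole oocytes. In the cortices its signals were 4071 in replicate 1 and 2423 in replicate 2. The groups did not overlap, and the spread lay almost entirely between the cortex arrays. The means were 242.2 ± 10.7 and 3247 ± 1166 (SD, n = 2), and the signal ratio was 16.3 in the first female and 10.3 in the second. The cortex arrays differed by 0.74 on the log2 scale. The SD of the same replicate difference was 1.04 among 1549 probe sets of like whole oocyte signal. Most of those probe sets were dimmer in the cortex than six3.L, so they match it in the oocyte only. The SD was 0.73 among probe sets with whole oocyte signals of 2866 to 4806, a range that holds the mean cortex signal of six3.L.

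tfcp2l1.L gave signals of 40.2 and 48.0 in whole oocytes. Its cortex signals were 965.5 and 969.2. It went from a dim reading to one above the middle of the array: 16.5% and 19.0% of probe sets were as low or lower on the oocyte arrays, and 59.0% and 59.8% on the cortex arrays. The means were 44.1 ± 5.5 and 967.3 ± 2.6 (SD, n = 2). The signal ratio was 24.0 in the first female and 20.2 in the second.

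tfcp2l1.S gave signals of 2237 and 2220 in whole oocytes. Its cortex signals were 7044 in replicate 1 and 3801 in replicate 2. Both cortex arrays were above both oocyte arrays, with a wide gap between the cortices of the different females. The means were 2228 ± 12.2 and 5422 ± 2293 (SD, n = 2), and the signal ratio was 3.15 in the first female and 1.71 in the second. The cortex arrays differed by 0.89 on the log2 scale, where the SD of this difference among probe sets of like whole oocyte signal was 0.79. The SD was 0.70 among probe sets with whole oocyte signals of at least 4807, a range that holds the mean cortex signal of tfcp2l1.S.

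**Figure D1:**
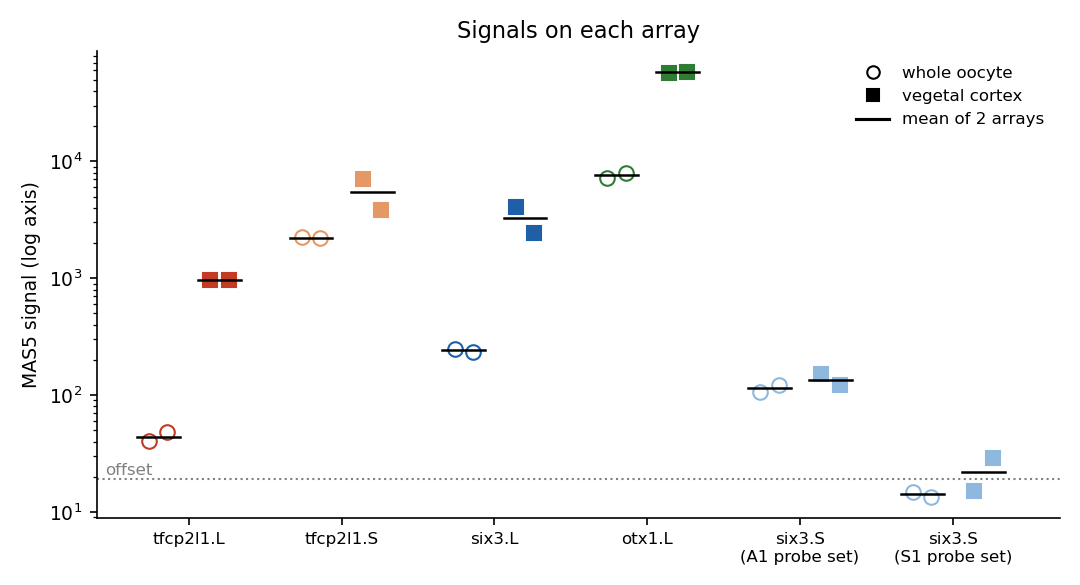
MAS5 signals (log axis) of the probe sets of tfcp2l1.L, tfcp2l1.S, six3.L, otx1.L and six3.S on each array, with open circles for whole oocytes, filled squares for vegetal cortices, bars for the mean of 2 arrays and a dotted line at the offset of 19.11. The cortex squares lie above the oocyte circles for all 4 member genes, while the groups lie close together or overlap for both probe sets of six3.S.

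On a log2 scale, after an offset of 19.11 had been added to every signal, the change from whole oocyte to cortex was 3.97 for tfcp2l1.L, 3.60 for six3.L, 2.93 for otx1.L and 1.21 for tfcp2l1.S. The standard errors from limma's fit over all tested probe sets were 0.49, 0.42, 0.25 and 0.39. The changes in the first and second female were 4.05 and 3.88 for tfcp2l1.L, 3.93 and 3.27 for six3.L, 2.97 and 2.88 for otx1.L, and 1.65 and 0.77 for tfcp2l1.S. In both females the order from largest to smallest change was tfcp2l1.L, six3.L, otx1.L and tfcp2l1.S. The values of tfcp2l1.L and six3.L overlapped across females, and those of the other neighbours in the order did not. Among the 9295 tested probe sets, the changes ranked 13 for tfcp2l1.L, 33 for six3.L, 105 for otx1.L and 602 for tfcp2l1.S, where the median change was -0.20.

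The member genes lay at different whole oocyte signals, where replicate arrays differed by different amounts. Probe sets entered the test with a mean signal of at least 271.5 over the 4 arrays, and tfcp2l1.L and six3.L reached it only through their cortex signals. When probe sets were divided into deciles by whole oocyte signal, tfcp2l1.L fell in the second decile from the bottom, which spans signals of 22.9 to 51.5. Of its 1549 probe sets 8 reached the limit for testing. Replicate arrays differed there with an SD of 0.92 (log2) between whole oocytes and 1.00 between cortices. In the brightest decile, which holds otx1.L, these SDs were 0.43 and 0.70.

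Few probe sets of like whole oocyte signal had changes as large as those of tfcp2l1.L, six3.L and otx1.L. The genes were chosen by these same changes, so their places among such probe sets are a description and test nothing. In the decile of tfcp2l1.L, the central 90% of probe sets had log2 changes between -0.78 and 1.31, and 1 probe set of 1549 had a larger change than tfcp2l1.L. In the decile of six3.L, the range was -0.96 to 1.12 and 2 probe sets had a larger change. In the decile of otx1.L, the range was -0.89 to 0.81 and 1 had a larger change. tfcp2l1.S lay nearer to its own range of -0.91 to 1.14, with 72 probe sets above it. Signals at least 4 times as high in the cortex of each female were found for 17 probe sets, or 1.1%, in the decile of tfcp2l1.L, for 86, or 5.55%, in the dimmest decile, and for 307, or 1.98%, over the whole array.

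**Figure D2:**
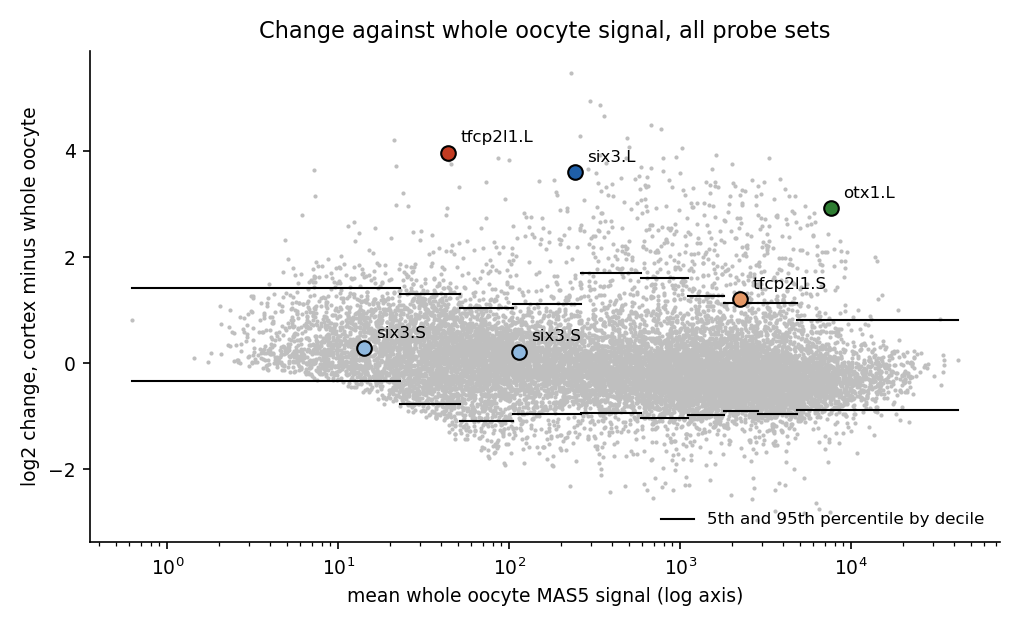
Log2 change from whole oocyte to vegetal cortex against the mean whole oocyte MAS5 signal (log axis) for all 15491 probe sets, with black lines at the 5th and 95th percentile within each decile of the whole oocyte signal. tfcp2l1.L, six3.L and otx1.L lie far above the upper line at low, middle and high signal, tfcp2l1.S lies just above it, and both six3.S probe sets lie between the lines.

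The size for tfcp2l1.L depended on how dim signals were treated. Its change was 22-fold with no offset, 15.6-fold with the offset of 19.11, 8.46-fold with an offset of 79.65 (the 25th percentile of signals) and 7.41-fold with an offset of 100. When signals under 79.65 were instead set to that value, the change was 12.1-fold. six3.L went from 13.0-fold with no offset to 9.48-fold with an offset of 100. otx1.L stayed between 7.53-fold and 7.62-fold, and tfcp2l1.S between 2.27-fold and 2.32-fold. With an offset of 79.65 or 100, six3.L and not tfcp2l1.L had the largest change of the 4 genes, and with 100 tfcp2l1.L fell level with otx1.L (log2 changes of 2.89 and 2.91).

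**Figure D3:**
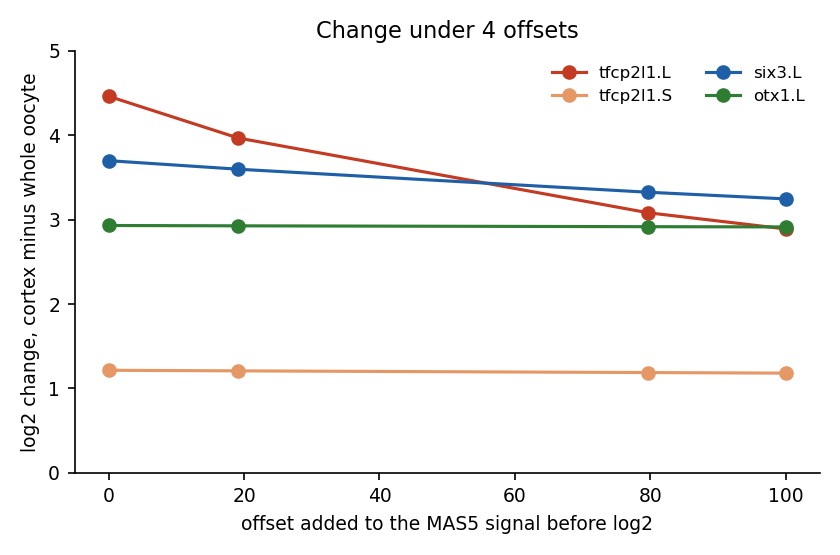
Log2 change from whole oocyte to vegetal cortex (vertical axis) against the offset added to the MAS5 signal before log2 (horizontal axis), one line per member gene. The line of tfcp2l1.L falls from 4.46 to 2.89, that of six3.L from 3.7 to 3.25, and those of otx1.L and tfcp2l1.S are nearly flat.

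Both copies of tfcp2l1 were higher in the cortex in both females, by different sizes. The log2 change of tfcp2l1.L exceeded that of tfcp2l1.S by 2.76, with 2.41 in the first female and 3.11 in the second. Over 636 homeolog pairs with both copies tested, the median absolute difference between the copies was 0.32 and the 95th percentile 1.49. A larger absolute difference was found for 5 pairs. tfcp2l1.L reached the limit for testing only through its cortex signals, and pairs with a copy below the limit, such as six3, were left out. The difference shrank from 3.25 with no offset to 1.89 with the 79.65 offset and 1.71 with 100, where 14 pairs had a larger one. tfcp2l1 was among 28 pairs in which at least 1 copy was at least 4-fold higher in the cortex. The other copy was at least 2-fold higher in 16 of them, tfcp2l1 included, and below that in 12. tfcp2l1.S was above this line over both females (2.31-fold) and below it in the second female (1.71-fold). The pair was chosen with these values known, so they describe it and were not tested. Whether a probe set also binds RNA of the other copy was not tested.

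**Figure D4:**
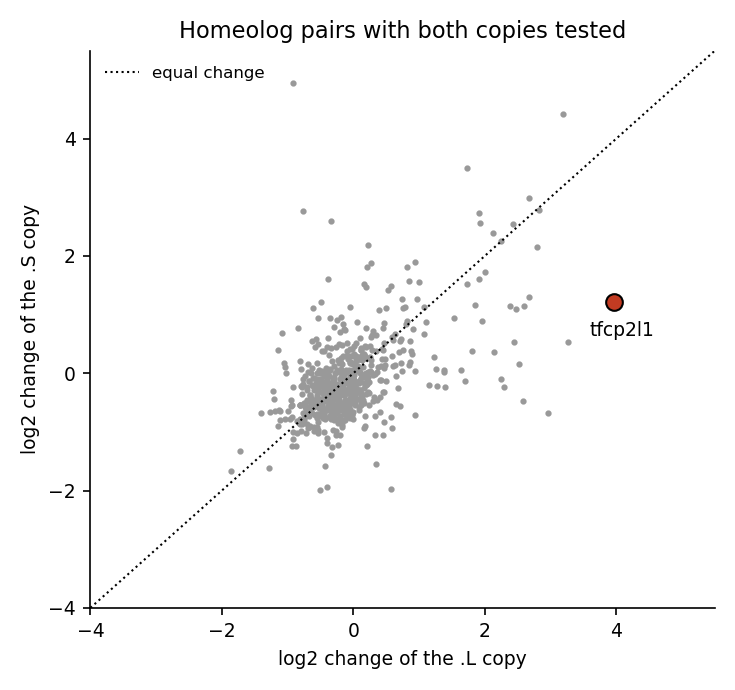
Log2 change of the .S copy (vertical axis) against that of the .L copy (horizontal axis) for 636 homeolog pairs, each copy given by its brightest tested probe set, with a dotted line at equal change. tfcp2l1 lies at 3.97 and 1.21, to the right of the line, with both copies above 0.

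For six3 the other homeolog was read by 2 probe sets, both below the signal limit for testing. six3.S read 106.1 and 121.5 in whole oocytes and 150.3 and 121.4 in cortices on the probe set labelled A1 in the plot of signals, so that the groups overlapped. On the probe set labelled S1 it had 14.7 and 13.5 in whole oocytes and 15.0 and 29.0 in cortices, below or near the offset. Their log2 changes were 0.22 and 0.28, against 3.60 for six3.L. At such signals a change of six3.S was not measurable with confidence, and an equal or different localization of the copies was not shown. otx1.S had no probe set with its symbol alone and was not analysed here.

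The tested relatives of tfcp2l1 did not pass the test, and no other SIX or OTX gene of the lists reached the limit for testing. Over all 9295 tested probe sets, limma called 308, or 3.31%, higher in the cortex and 0, or 0.0%, lower at an adjusted p under 0.05 (745 and 429 at an unadjusted p under 0.05). In the TFCP2 and grainyhead family, 0 of the 2 tested genes other than tfcp2l1 passed in either direction (1 lower at an unadjusted p under 0.05). tfcp2.L, a widely expressed CP2 factor, read 625.0 and 765.5 in whole oocytes and 622.6 and 679.2 in cortices (log2 change -0.09 ± 0.40 SE). grhl1.L, a grainyhead factor of epidermal differentiation, had 2315 and 2847 in whole oocytes and 1006 and 483.9 in cortices. Its groups did not overlap, and its log2 change of -1.85 ± 0.44 did not pass (adjusted p = 0.0749). Leaving out 1 array gave changes from -2.36 (without vegetal cortex replicate 1) to -1.34 (without vegetal cortex replicate 2).

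In the network of Six3 relatives and their EYA, DACH and TLE partners, 8 of 12 genes on the array were tested, among them six3.L. Of the 7 tested genes of this network other than six3.L, 0 passed in either direction, also at an unadjusted p under 0.05. With 3.31% of all tested probe sets called higher and 0.0% lower, 0 of 7 does not set the network apart. A change above 0 was seen for 3 of the 7, and their median log2 change was -0.02 over all 7. The Groucho-type corepressor gene tle2.L had a log2 change of -0.24 ± 0.38 and tle4.S of -0.53 ± 0.70. The homeologs of tle5, which encodes a short Groucho-type protein, had 0.65 ± 0.36 for tle5.L and -0.52 ± 0.35 for tle5.S. eya3.L, a phosphatase that acts as a coactivator beside Six3 relatives, stood at 0.04 ± 0.47. gmnn, which encodes the replication inhibitor geminin, a binding partner of Six3 known from fish, was bright on all arrays: gmnn.L had means of 22749 ± 2470 and 22809 ± 5836, and gmnn.S of 12643 ± 272 and 13632 ± 5013 (SD, n = 2).

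In the OTX family and head organizer list, 3 of 22 genes on the array were tested, among them otx1.L. The other 2, both copies of ldb1, an adaptor of LIM-homeodomain proteins, had log2 changes of -0.65 ± 0.45 (ldb1.L) and -0.90 ± 0.48 (ldb1.S). Neither passed, also at an unadjusted p under 0.05. Their changes were -1.14 and -1.47 without vegetal cortex replicate 1, and -0.16 and -0.32 without vegetal cortex replicate 2. Close relatives of otx1 and six3 were dim in both groups, and were picked for mention after their values were seen. otx2.L, the forebrain paralog of otx1, read 19.6 and 31.8 in whole oocytes and 15.4 and 36.1 in cortices. otx2.S had 169.6 and 56.3 against 156.4 and 81.4. six6.L, the paralog of six3, read at most 13.5 on any array, and six6.S had 17.0 and 29.8 against 80.6 and 51.4. None of these reached the limit for testing, so a change in them was not tested with that limit in place.

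Across 119 homeobox genes on the array, 14 were tested, including six3.L and otx1.L. Of the other 12, 0 passed in either direction (1 upward and 2 downward at an unadjusted p under 0.05). With 3.31% of all tested probe sets called higher and 0.0% lower, 0 of 12 does not set the list apart. The median log2 change of the 12 was -0.18, and 4 were above 0. pbx2.L, a TALE-class cofactor of Hox proteins, came closest, at 557.4 and 403.6 in whole oocytes and 3215 and 1470 in cortices. Its log2 change of 2.15 ± 0.47 had an adjusted p = 0.0511, and adjusted p = 0.0256 with the female as a block. Over the settings tried its adjusted p ran from 8.75e-07 to 0.358, the lowest without vegetal cortex replicate 2 and the highest without whole oocyte replicate 2. The TALE-class repressor gene tgif2.S had a change of -1.54 ± 0.46 (adjusted p = 0.172), the POU factor gene pou5f3.3.L of -0.82 ± 0.30 (adjusted p = 0.315) and the notochord homeobox gene not.L of -0.38 ± 0.41 (adjusted p = 0.712). Without the first cortex array tgif2.S and pou5f3.3.L had changes of -1.995 and -1.04, and without the second -1.08 and -0.61.

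Of the genes that work with Six3 and Otx1 in the anterior neural plate, or with Tfcp2l1 in stem cells, few were tested and 0 were called. With 3.31% of all tested probe sets called higher, 0 calls among so few genes sets neither list apart. Of 27 genes of the anterior neural plate and eye field on the array 5 were tested. Of these 0 passed, also at an unadjusted p under 0.05, with a median log2 change of 0.40. The SoxC factor gene sox11.S had 1.01 ± 0.67, with signals of 2310 and 11665 in the cortex replicates. Its change was 2.17 without vegetal cortex replicate 1 and -0.15 without vegetal cortex replicate 2. The neural factor genes sox3.L, sox3.S and zic2.L had 0.46 ± 0.60, 0.40 ± 0.30 and 0.23 ± 0.38. Of 19 pluripotency partners on the array 10 were tested. Of these 0 passed (0 upward and 2 downward at an unadjusted p under 0.05), with a median of -0.04. The zinc finger gene sall1.L had -2.40 ± 1.01 (adjusted p = 0.384), resting on 1 cortex array. Its cortex signals were 415.1 and 16.4. Its change was -4.20 without vegetal cortex replicate 1 and -0.59 without vegetal cortex replicate 2. lin28b.S, an RNA-binding regulator of let-7, had 0.83 ± 0.37, and ctnnb1.L, which encodes beta-catenin, had 0.41 ± 0.45.

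Among 56 tested genes of maternal transcription factors of the oocyte, a list without the member genes, 4 rose and 0 fell (9 and 1 at an unadjusted p under 0.05), and the list's median log2 change was 0.01. tcf7l2.L, an HMG-box effector of Wnt signalling, went from signals of 128.2 and 122.8 to 745.2 and 1217 (6.72-fold, log2 change 2.75 ± 0.47, adjusted p = 0.0175). e2f1.L, a factor of entry into DNA synthesis, went from 6160 and 6104 to 47095 and 31995 (6.31-fold, 2.66 ± 0.30, adjusted p = 0.00344). The increase was seen in each female for both genes, and as with tfcp2l1.L and six3.L, tcf7l2.L reached the limit for testing only through its cortex signals. mycn.L, a Myc family gene, rose 4.01-fold (2.00 ± 0.40, adjusted p = 0.0326), and vegt.L, which specifies endoderm, rose 3.77-fold (1.92 ± 0.24, adjusted p = 0.00454). Neither tcf7l2.L nor mycn.L passed without whole oocyte replicate 1 (2.78 and 1.69) or without whole oocyte replicate 2 (2.72 and 2.31), so the count was 2 in both cases. With no filter on dim probe sets mycn.L did not pass (adjusted p = 0.0697), which left 3. Without vegetal cortex replicate 2 the count was 8. With the female as a block the count was 6, with mycn.S and vegt.S added. With quantile normalization or equal medians it was 5, with mycn.S added. With the signal limit at the 50th percentile it stayed at 4, as mycn.S passed and tcf7l2.L was not tested. The 4 calls were 4 of 56, beside 3.31% of all tested probe sets.

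**Figure D5:**
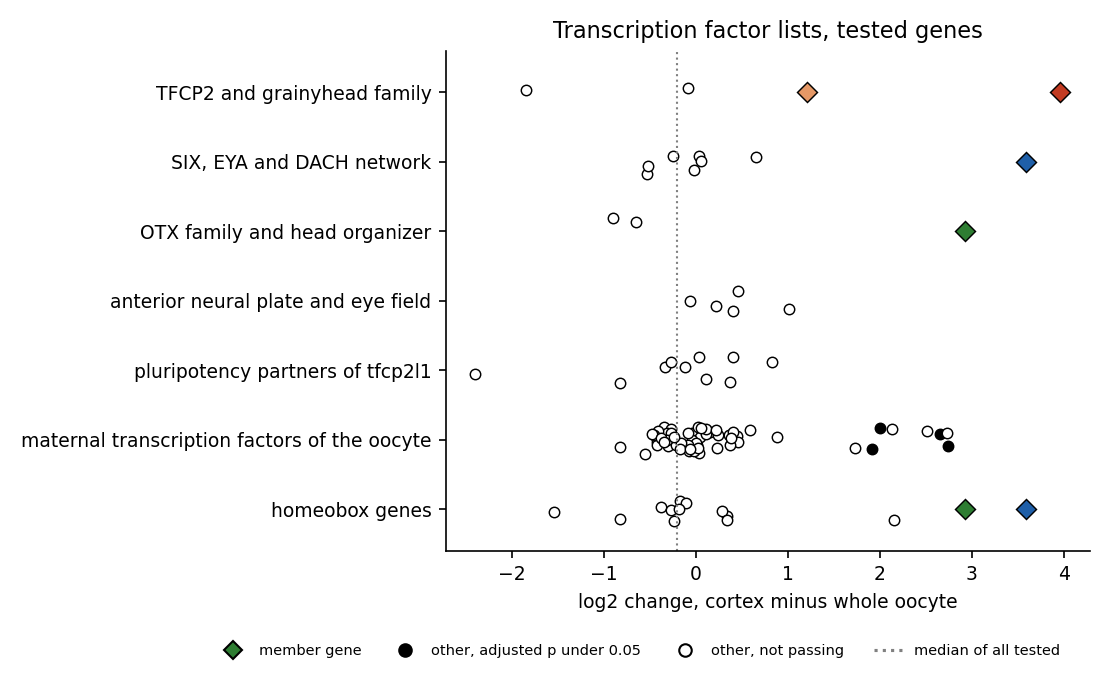
Log2 change from whole oocyte to vegetal cortex (horizontal axis) of each tested gene in 7 lists of transcription factors and their partners (rows, with points spread vertically for legibility), with diamonds for the member genes, filled circles for other genes at an adjusted p under 0.05, open circles for the rest and a dotted line at the median of all tested probe sets, -0.20. Within the top 3 rows the diamonds stand apart to the right and no circle is filled, and the 4 filled circles lie in the row of maternal transcription factors.

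The member genes were set beside 5231 genes with a tested probe set by the Euclidean distance between mean-centred log2 signals over the 4 arrays. Because only 2 groups exist, nearness mostly means a change of like size in the same comparison. The nearest to tfcp2l1.L were germes.L and nanos1.L, both germ plasm RNAs, at distances of 0.136 and 0.26, followed by the receptor gene igf1r.S (0.54), the ephrin gene efnb1.L (0.575) and the acyl-CoA synthetase gene acsl1.S (0.644). The nearest to six3.L were grip2.L, a germ plasm scaffold gene (0.22), the receptor gene fgfr2.L (0.25), mfge8.S (0.30), acsl1.L (0.484) and klhl24.S (0.498). Like six3.L, all of these had a higher signal in vegetal cortex replicate 1 than in replicate 2. The distance includes the difference between the cortex arrays, so this shared direction follows from how the neighbours were picked and tests nothing.

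The nearest to otx1.L were the retinol dehydrogenase gene rdh10.L (0.132), txndc12.L (0.193), the phosphatase gene ctdspl.S (0.233), the lipoprotein receptor gene lrp1.S (0.234) and the reticulon gene rtn3.L (0.268), with log2 changes between 2.75 and 3.18. tfcp2l1.S had other neighbours, among them ostc.S (0.15), MGC83799 (0.159), rpia.L (0.26) and atxn1l.S (0.272), with log2 changes of only 1.06 to 1.35. The distance between both tfcp2l1 copies was 2.83. tfcp2l1.L lay nearer to six3.L (0.672) and otx1.L (1.04).

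The material carried the RNAs of oocytes in both groups. Of 16 oocyte marker genes on the array all 16 were tested. Of these 3 were called higher (dazl.L, gdf1.S and vegt.L, themselves RNAs of the vegetal cortex) and 0 lower (5 and 0 at an unadjusted p under 0.05). Over all 9295 tested probe sets, 3.31% were called higher and 0.0% lower (745 and 429 probe sets at an unadjusted p under 0.05). The summed signal of the oocyte markers was 103188 to 103672 in whole oocytes and 230516 to 252014 in cortices. Of 13 follicle and stromal genes on the array 3 were tested. All 3 had a log2 change above 0, with a median of 0.15. 1 of them was called higher, the steroid hydroxylase gene cyp17a1.L (4.39-fold, adjusted p = 0.0168), beside 3.31% of all tested probe sets. Whether its RNA came from follicle cells or from the oocyte was not tested. The summed signal of the list was 32586 to 32796 in whole oocytes and 52082 to 55622 in cortices. Of the follicle genes too dim to test, cyp19a1.L had means of 57.2 and 72.3 and fshr.L of 68.2 and 100.9. Both are mentioned outside the naming rule and do not stand for the list. Blood genes had summed signals of 1304 to 1616 and 1284 to 1860, and liver and yolk precursor genes of 889.3 to 1025 and 916.9 to 1189, with 1 gene of each list tested and 0 called (0 at an unadjusted p under 0.05). The part of other cells in the signals of the member genes was not tested.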

How the data were processed

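RNA of 2 whole oocyte and 2 vegetal cortex samples was measured on 1-colour Affymetrix arrays. Per the labels' protocols, 100 ng of total RNA went through 2-cycle cDNA amplification and biotin labelling. Per the submitters' processing notes, MAS5 computed each deposited value, a linear intensity. Its version is not given in the sources used here. No detection calls were used. The mean after trimming 2% at each end was 1500.1 or 1500.2 on every array. The number of arrays limits the precision, and errors of signals are SD over 2 arrays. Median signals were 521.0 to 601.2, and log2 signals correlated across probe sets at 0.973 between whole oocytes and 0.939 between cortices.

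Symbols came from the platform annotation, updated (2 symbols) through gene identifiers of the Xenopus_laevis_v10.1 annotation. Of the probe sets, 9304 had 1 symbol, 195 several and 5992 none. The 10th percentile of all signals (19.11) was added before log2, which makes changes of dim probe sets smaller than without an offset. Testing was limited to probe sets whose mean signal reached the 40th percentile (271.5) and was done with limma 3.58.1 in R 4.3.3 (lmFit, and eBayes with an intensity trend), two-sided, without a block, with Benjamini-Hochberg adjustment over all 9295. Each gene in a list is given by its brightest tested probe set. The fit was also run on simulated signals with independent noise on each array and set changes in probe sets above the signal limit. That run did not cover a spread shared by samples of the same female, or a wider spread between cortices than between whole oocytes.

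The member genes, the lists and the naming rule were chosen with earlier results of these data known. Named are the members and their homeologs, all tested genes of the 3 family lists, called genes of the other lists (up to 6, or the 4 with the largest change where no non-member was called) and the 5 nearest genes to each member, of which 1 is not reported here. Replicate numbers pair samples of the same female per the labels, taken from the titles because the description of the second cortex sample repeats the replicate number of the first, and the deviations of same-numbered arrays correlated at 0.347. Alternatives were other offsets, normalizations and signal limits, no trend, a block and leaving out each array; setting dim signals to a floor was added after seeing the data. Sequences and coordinates were not used here.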

Additional observations from a re-analysis of the deposited data

How the results depend on the processing

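All 4 member genes were higher in the cortex under every alternative run. With no offset the log2 change of tfcp2l1.L was 4.46, with the 25th percentile as offset 3.08, with an offset of 100 2.89, and with dim signals set to the 25th percentile, a choice made after seeing the data, 3.6. The difference between the tfcp2l1 copies was 1.89 with the 25th percentile and 1.71 with 100. otx1.L moved to 2.69 with quantile normalization and 3.02 with equal medians, small shifts beside its own size but larger than the spread between females. Leaving out 1 array gave 3.88 to 4.06 for tfcp2l1.L, 0.77 to 1.65 for tfcp2l1.S, 3.22 to 3.97 for six3.L, 2.87 to 2.99 for otx1.L and 2.31 to 3.2 for the difference between the copies.

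Probe sets called higher ranged from 125 to 697 and those called lower from 0 to 673 when 1 array was left out, and 1 was called lower with quantile normalization. With 1 cortex array left the error comes from the whole oocyte arrays alone, and the lone array is assumed to vary like them. Among genes other than members, 1 homeobox gene (pbx2.L) was called higher with no offset, quantile normalization, equal medians, the limit at the 50th percentile or the replicate block. With 1 array left out, calls higher ranged from 0 to 1 for homeobox genes, 0 to 1 for the anterior neural list and 2 to 8 for the maternal factors, and calls lower from 0 to 2 for the homeobox, OTX and pluripotency lists and 0 to 1 for the TFCP2 list and the maternal factors. The replicate block also called 6 maternal factors higher, against 4 without it, and 355 probe sets, and changed no other adjusted call count of the 7 transcription factor lists. The cause of these shifts was not tested. Without detection calls, a signal near the offset, as of tfcp2l1.L in whole oocytes, may be background.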

Other observations

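Several other transcription factor genes had far apart cortex arrays. They were picked for this after their values were seen, and none of them passed the test over all 4 arrays without a block. snai1.S, a zinc finger repressor gene, read 942.0 and 811.3 in whole oocytes and 20229 and 1262 in cortex replicates 1 and 2. sox7.L, a SoxF factor gene, had 1741 and 1394 in whole oocytes and 20659 and 2301 in cortices. vegt.S had 777.4 and 345.3 in whole oocytes and 9599 and 1317 in cortices. It passed with the replicate block (adjusted p = 0.036), where its adjusted p was 0.185 without. Its log2 change was 1.31 without vegetal cortex replicate 1 and 4.16 without vegetal cortex replicate 2. Leaving out vegetal cortex replicate 2 keeps only the high cortex array of all 3 genes. Calls in that fit follow from how the genes were picked. In these 3 vegetal cortex replicate 1 was the high array, as it was, by smaller margins, for six3.L and tfcp2l1.S. sox11.S, which did not pass either, ran the other way, with cortex signals of 2310 in replicate 1 and 11665 in replicate 2.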
